A study of Mus musculus with 4 samples.

Results

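Aminoacyl-tRNA synthetases were examined in mouse erythroid cells set to differentiate, in 2 cultures of MEL cells and 2 cultures of ES-EP cells, 1 array each. The members are defined by name: the cytosolic synthetases, the mitochondrial synthetases (names ending in 2) and the 3 scaffold proteins of the multisynthetase complex. Of the 39 genes on the list, 37 had an array feature annotated to them alone, out of 19938 genes measured in that way. The feature of Aars is shared with Exosc6 and is not counted here, and Dars was not analysed here. Older gene names are used throughout; newer ones carry a suffix 1 (Vars1, Mars1).

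A synthetase joins 1 amino acid to its tRNA, and the charged tRNA then brings that amino acid to the ribosome. Cytosol and mitochondria read separate sets of tRNAs, and most amino acids have a separate nuclear gene for each compartment, while Kars and Gars serve both. In animal cells several cytosolic synthetases are held in a multisynthetase complex by the proteins encoded by Aimp1, Aimp2 and Eef1e1. Erythroid cells make very large amounts of globin, and amino acid or heme shortage is sensed in them by kinases of the initiation factor eIF2alpha, whose downstream factor ATF4 is known to activate several synthetase genes.

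MEL is a mouse erythroleukemia line, here grown in DMEM with fetal bovine serum, glutamine and puromycin, and induced to differentiate over 48 hours with 17b-estradiol. The ES-EP cultures consist of erythroid progenitors with an embryonic stem cell origin. Their expansion medium was StemPro34 with Epogen (erythropoietin), IGF-1, dexamethasone, stem cell factor and b-mercaptoethanol, and they were differentiated for 24 hours in StemPro34 with Epogen, insulin, mifepristone and b-mercaptoethanol. Cell line, medium, inducer and hours differ together and cannot be told apart, and each side is a single line. Nothing says when the duplicates, lettered A and B, were grown, so the p-values measure only the spread between these cultures.

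The values are log2 signals from Affymetrix Mouse Gene 1.0 ST arrays, and a difference is always MEL minus ES-EP on the log2 scale. Array medians were 5.89 and 5.78 in MEL and 5.91 and 5.89 in ES-EP cells. The 6 measured erythroid markers of a list of 8 had median levels of 11.06 (MEL) and 11.40 (ES-EP). Single erythroid genes differed by amounts within the range of the members or just past it: Alas2 (-1.33), Hemgn (-1.08), Klf1 (-0.81) and Tfrc (-0.81) were lower in MEL, and Gata1 (0.46) and Epor (0.42) were higher, with a median difference of -0.81. Pluripotency markers (5 genes) had medians of 4.43 and 4.42, and myeloid markers (7 genes) 4.79 and 5.10. Megakaryocyte markers (4 genes) had the higher median on the MEL side, 7.65 against 5.42. Pf4 (8.34 against 3.96, a difference of 4.38), Itga2b (2.22) and Ppbp (0.67) passed as higher in MEL. Gp9 (-0.06) did not pass. Mast cell and basophil markers (6 genes) had the lower median on the MEL side, 3.95 against 4.99. Of these, 4 passed as lower, and 1 of them, Ms4a2 (3.93 against 7.45), by at least 1.5-fold. Prtn3 of myeloid cells read 7.42 in MEL against 5.62 in ES-EP cells. Prtn3 was the only 1 of the 7 myeloid markers that passed the test as higher in MEL, while Csf1r (-0.92), Ctsg (-0.31) and Mpo (-0.24) were lower. The part of all these markers in the results was not tested. In these bulk samples fewer cells of a type and less RNA per cell cannot be told apart.

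Most members had lower signals in the MEL cultures. Of the 37 genes 23 were lower and 6 were higher at an adjusted p under 0.05 (limma, Benjamini-Hochberg over all features), against 36.9% lower and 21.8% higher among all genes. At a difference of at least 1.5-fold, 15 members were lower and 2 higher, against 14.5% and 13.0% of all genes. All 37 members had a mean signal at or above the median feature. Of the 10646 genes at or above it 34.9% were lower and 33.3% higher, and 17.8% and 20.8% by at least 1.5-fold. The arrays of the groups did not overlap for 33 members, 25 lower and 8 higher in MEL, where 51.5% and 28.7% of all genes had such an arrangement. The median difference was -0.35, against -0.14 over all genes. Other scalings moved the median of all genes to between -0.07 and 0.02, and after cyclic loess 24.5% of all genes were lower and 29% higher, with 19 members lower and 7 higher.

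The lower values belonged mainly to genes outside the mitochondrial set. Of 21 measured genes for cytosolic enzymes and scaffolds 16 were lower and 2 higher, with a median of -0.60. Among the 2675 genes of all kinds with a mean signal in the same range, 42.5% were lower, 24.7% were higher, and the median was -0.14. Of the 16 mitochondrial enzymes 7 were lower and 4 higher, with a median of -0.06. In their own signal range 34.4% of 7616 genes were lower and 35.3% higher, with a median of -0.01. The first set had 14 lower and 2 higher genes after each of 3 other scalings. The mitochondrial set had 7 lower and 4 higher after quantile normalization, 4 and 4 after centring on array medians, and 5 and 5 after cyclic loess, and its median became 0.0007 after centring and 0.0065 after cyclic loess. Without ES-EP culture B it had 4 lower and 4 higher, and without MEL culture A 5 lower and 6 higher with a median of 0.03.

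**Figure D1:**
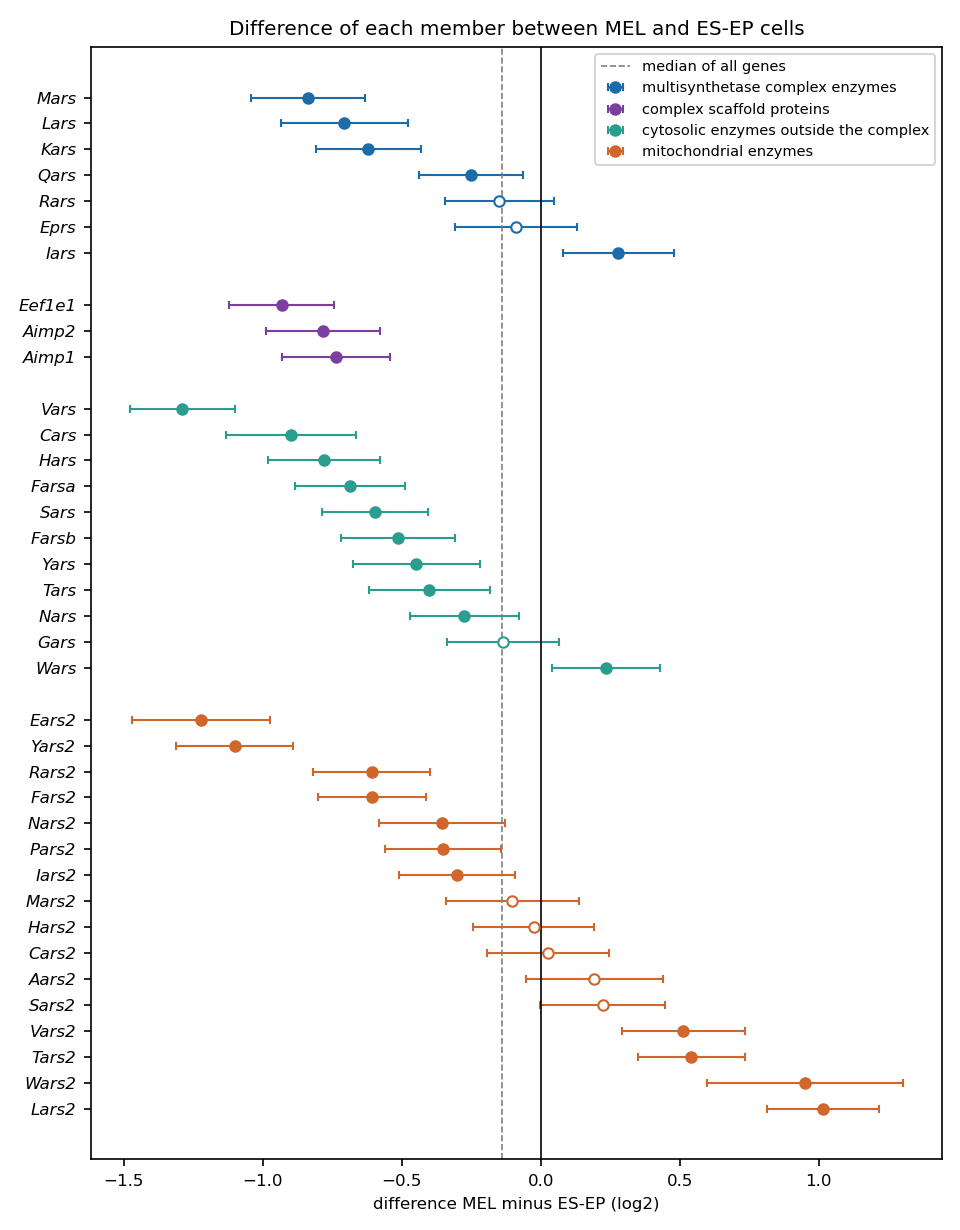
Difference of MEL minus ES-EP (log2, horizontal axis) for each of the 37 members, grouped by role, with 95% intervals of the limma fit. Filled circles passed at an adjusted p under 0.05 and open circles did not. The dashed line is the median of all genes, -0.14. The 3 scaffold genes lie between -0.93 and -0.74, while the mitochondrial enzymes run from -1.22 to 1.01.

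All 3 scaffold genes of the multisynthetase complex were lower in MEL. Eef1e1, the small subunit that resembles an elongation factor domain, had 10.23 and 10.24 in the MEL cultures and 11.14 and 11.19 in the ES-EP cultures. Its duplicates lay within 0.05 of each other while the groups were almost a log2 unit apart (-0.93 ± 0.08, SE, n = 2 per group, 1.91-fold lower, limma adjusted p = 7.18e-05). Aimp2, which binds most of the complex's enzymes, had 8.87 and 8.98 in MEL and 9.75 and 9.67 in ES-EP cells (-0.78 ± 0.09, adjusted p = 0.000257). Aimp1, a tRNA-binding scaffold that can also be secreted as a cytokine precursor, had 9.41 and 9.42 in MEL and 10.11 and 10.19 in ES-EP cells (-0.74 ± 0.08, adjusted p = 0.000265). The groups did not overlap for any of the 3, and 51.5% of all genes likewise lay lower in MEL without overlap.

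The enzymes housed in the complex were less uniform, with 4 lower and 1 higher of 7 measured, against 36.9% and 21.8% of all genes. Mars, which charges both initiator and elongator methionine tRNA, had 10.15 and 10.27 in MEL and 11.01 and 11.08 in ES-EP cells. Its difference was -0.84 ± 0.09 (SE, n = 2 per group, adjusted p = 0.00019). Lars, which charges leucine tRNA and is also known as a leucine sensor of the mTORC1 pathway, had 10.12 and 10.33 in MEL and 10.95 and 10.91 in ES-EP cells (-0.71 ± 0.10, adjusted p = 0.000761). Kars, the lysine enzyme, had 10.42 and 10.39 in MEL and 11.02 and 11.03 in ES-EP cells (-0.62 ± 0.08, adjusted p = 0.000547). Both groups of Kars arrays were tight, and these 3 enzymes passed under every alternative run.

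The other enzymes of the complex differed little. Qars, for glutamine, read 10.98 and 11.00 in MEL against 11.24 and 11.24 in ES-EP cells, a difference of -0.25 (adjusted p = 0.0312). That call was lost under quantile normalization, centring and cyclic loess (adjusted p = 0.187, 0.234 and 0.134), and without MEL culture A (0.0548), ES-EP culture A (0.156) or ES-EP culture B (0.162). Rars, for arginine, differed by -0.15 with a 95% interval of -0.35 to 0.05 (adjusted p = 0.163). It passed with an intensity trend in the prior (adjusted p = 0.0177). After quantile normalization, centring and cyclic loess Rars differed by -0.02, -0.09 and -0.04 (adjusted p = 0.868, 0.618 and 0.682). Eprs, a single protein that charges both glutamate and proline tRNA, had 10.52 and 10.68 in MEL and 10.65 and 10.73 in ES-EP cells. Its groups overlapped, and the interval of the difference was -0.31 to 0.13 (adjusted p = 0.449).

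Iars, the isoleucine enzyme, was the complex member that ran the other way. Its brighter feature (10405094) had 11.49 and 11.59 in MEL and 11.24 and 11.29 in ES-EP cells, a difference of 0.28 ± 0.08 (SE, n = 2 per group, adjusted p = 0.026). A second feature of Iars (10345025) differed by 0.18 and did not pass (adjusted p = 0.0993). The call on the brighter feature was lost without MEL culture B (adjusted p = 0.0707), ES-EP culture A (0.163) or ES-EP culture B (0.0955). Values of both features were higher in both MEL cultures than in either ES-EP culture, an arrangement that 28.7% of all genes had.

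**Figure D2:**
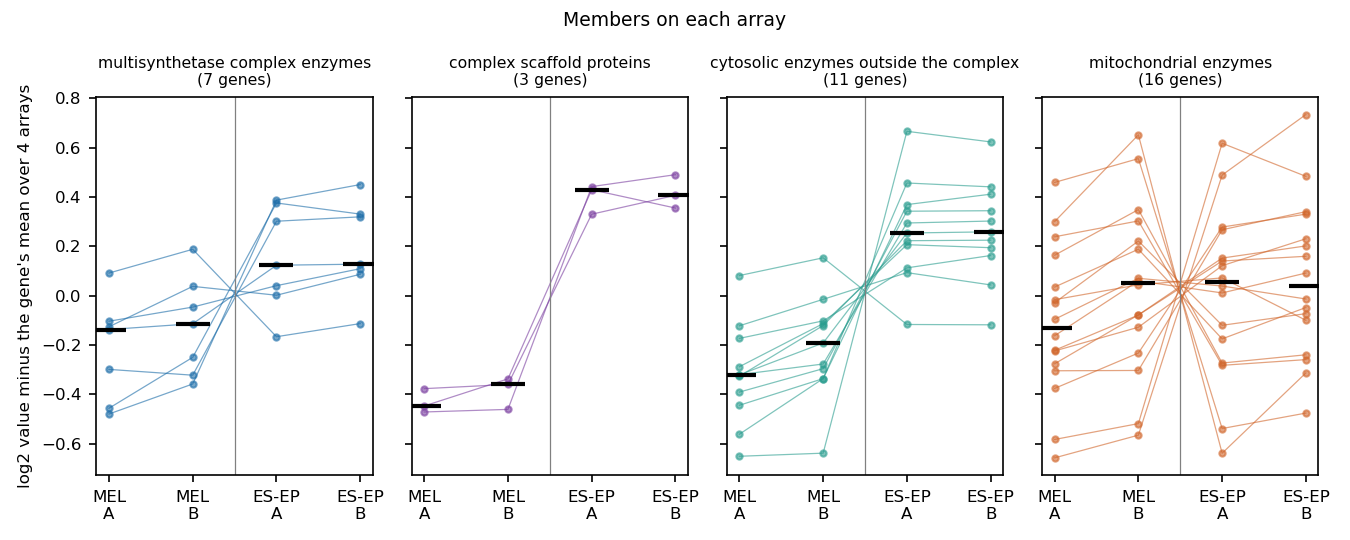
Each member's log2 value on the MEL A, MEL B, ES-EP A and ES-EP B arrays minus its mean over the 4 arrays (vertical axis), in 4 panels by role. Thin lines join the values of 1 gene and have no meaning as an order, and black bars are medians. The scaffold genes sit below 0 on both MEL arrays and above 0 on both ES-EP arrays, and the mitochondrial genes lie on both sides on every array.

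Among the 11 measured cytosolic enzymes outside the complex 9 were lower in MEL and 1 was higher, against 36.9% and 21.8% of all genes. Their median was -0.51. Vars, which charges valine tRNA and works together with the elongation factor EF-1, had the largest negative difference of all 37 members (feature 10444605). It stood at 9.49 and 9.50 in MEL and 10.80 and 10.76 in ES-EP cells. The difference was -1.29 ± 0.08 (SE, n = 2 per group), 2.44-fold lower in MEL (adjusted p = 1.42e-05), and it stayed between -1.31 and -1.16 under all alternatives run.

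Cars and Hars came next in this set. Cars, for cysteine, had 9.31 and 9.53 in MEL and 10.33 and 10.31 in ES-EP cells (-0.90 ± 0.10, adjusted p = 0.000256). Its MEL duplicates were 0.23 apart, still far less than the distance between the groups. Hars, for histidine, had 10.14 and 10.25 in MEL and 10.96 and 11.00 in ES-EP cells (-0.78 ± 0.09, adjusted p = 0.000239).

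Both subunits of the cytosolic phenylalanine enzyme were lower. Farsa, the catalytic alpha subunit, had 9.54 and 9.63 in MEL and 10.27 and 10.27 in ES-EP cells (-0.69 ± 0.08, adjusted p = 0.000409). Farsb, the beta subunit with the editing site, had 10.85 and 10.98 in MEL and 11.42 and 11.43 in ES-EP cells (-0.51 ± 0.09, adjusted p = 0.00204). The intervals of the 2 differences overlap, at -0.88 to -0.49 for Farsa and -0.72 to -0.31 for Farsb.

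The remaining lower members of this set were Sars, Yars, Tars and Nars. Sars, for serine, differed by -0.60 (adjusted p = 0.000685), Yars, for tyrosine, by -0.45 (0.00631), and Tars, for threonine, by -0.40 (0.00832). Nars, for asparagine, had 11.86 and 11.93 in MEL and 12.14 and 12.19 in ES-EP cells, a difference of -0.28 (adjusted p = 0.0253). The Nars call was lost under quantile normalization, centring and cyclic loess (adjusted p = 0.0594, 0.173 and 0.104) and without MEL culture A (0.0592), ES-EP culture A (0.0997) or ES-EP culture B (0.163). Gars, for glycine, an amino acid that is also a substrate of heme synthesis, had 11.14 and 11.25 in MEL and 11.36 and 11.31 in ES-EP cells, and its interval of -0.34 to 0.06 includes 0 (adjusted p = 0.209). It passed with an intensity trend in the prior (adjusted p = 0.0398). After quantile normalization, centring and cyclic loess Gars differed by 0.0069, -0.07 and -0.03 (adjusted p = 0.938, 0.678 and 0.7825).

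Wars, the tryptophan enzyme known in other cells as an interferon-induced gene, was the higher one. It had 10.10 and 10.17 in MEL and 9.90 and 9.90 in ES-EP cells, a 1.18-fold difference (0.23 ± 0.08, SE, n = 2 per group, adjusted p = 0.043). The call was lost without MEL culture B (adjusted p = 0.0943), ES-EP culture A (0.189) or ES-EP culture B (0.19). With any of these 3 cultures left out, neither Iars nor Wars passed, and they were the only genes outside the mitochondrial set to pass as higher.

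The mitochondrial synthetases spread widely in both directions. Lars2, for leucine (feature 10590563), had the largest positive difference of all members, with 8.54 and 8.63 in MEL and 7.54 and 7.60 in ES-EP cells. It was 2.02-fold higher in MEL (1.01 ± 0.09, SE, n = 2 per group, adjusted p = 6.16e-05). Wars2, for tryptophan, had 7.83 and 8.19 in MEL and 6.90 and 7.22 in ES-EP cells (0.95 ± 0.15, adjusted p = 0.00144). Wars2 had the widest gap between duplicates of all members in both groups, 0.35 and 0.33. Its groups still did not overlap, and 28.7% of all genes likewise lay higher in MEL without overlap.

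Tars2 and Vars2 were higher by smaller amounts. Tars2, for threonine, had 10.46 and 10.52 in MEL and 9.94 and 9.96 in ES-EP cells (0.54 ± 0.08, adjusted p = 0.00118). Vars2, for valine, had 8.11 and 8.30 in MEL and 7.67 and 7.71 in ES-EP cells (0.51 ± 0.09, adjusted p = 0.00298). These 4 higher mitochondrial enzymes passed under every alternative run.

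Ears2 and Yars2 led the lower ones. Ears2, which charges mitochondrial glutamate tRNA and, before amidation, glutamine tRNA, had 5.93 and 6.02 in MEL and 7.07 and 7.32 in ES-EP cells. The MEL values lie near the median signal of all features, 5.91, where RMA values compress differences. The difference was -1.22 ± 0.11 (SE, n = 2 per group), 2.33-fold lower in MEL (adjusted p = 7.05e-05). Yars2, for tyrosine, whose human counterpart is mutated in a syndrome of muscle disease with sideroblastic anemia, had 8.21 and 8.28 in MEL and 9.41 and 9.28 in ES-EP cells (-1.10 ± 0.09, adjusted p = 5.03e-05). Rars2, for arginine, differed by -0.61 (adjusted p = 0.00104) and Fars2, the single-chain phenylalanine enzyme, by -0.61 (0.000688). In all 4 both MEL cultures were below both ES-EP cultures, as in 51.5% of all genes, and all 4 passed under every alternative run.

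Less stable were the calls of Nars2 (-0.35, adjusted p = 0.0168), Pars2 (-0.35, 0.0122) and Iars2 (-0.30, 0.0231), for asparagine, proline and isoleucine. Centring took all of them above the threshold (adjusted p = 0.0523, 0.0541 and 0.123), and cyclic loess took Pars2 and Iars2 (0.0552 and 0.0618). Without ES-EP culture B they stood at 0.0892, 0.104 and 0.119. Without ES-EP culture A, Nars2 stood at 0.0557 and Iars2 at 0.0989, and without MEL culture A at 0.0501 and 0.0627.

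The remaining 5 mitochondrial enzymes did not pass. Mars2, Hars2 and Cars2, for methionine, histidine and cysteine, had overlapping groups, with 95% intervals of -0.34 to 0.14, -0.24 to 0.19 and -0.19 to 0.25. Aars2, for alanine, had 7.36 and 7.61 in MEL and 7.27 and 7.31 in ES-EP cells (0.19, adjusted p = 0.153), and Sars2, for serine, 7.54 and 7.69 in MEL and 7.33 and 7.45 in ES-EP cells (0.22, adjusted p = 0.0827). Without MEL culture A Aars2 differed by 0.32 and Sars2 by 0.30, and without MEL culture B by 0.07 and 0.15. After quantile normalization they differed by 0.04 and 0.09 (adjusted p = 0.691 and 0.35), while Sars2 passed after cyclic loess (0.0446). Their MEL values lay above their ES-EP values on every array, an arrangement that 28.7% of all genes had.

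In 12 measured pairs a cytosolic and a mitochondrial enzyme gene share a name apart from the suffix 2, and the members of a pair often did not move together. In 8 of the 12 pairs the cytosolic gene's difference lay below that of its mitochondrial counterpart, and the median gap was -0.74. Over all genes the median was -0.14 in the signal range of the members outside mitochondria and -0.01 in that of the mitochondrial enzymes. Calls in opposite directions occurred for 4 pairs, where 36.9% of all genes were lower and 21.8% higher. How often pairs of other genes differ in these ways was not worked out. Valine gave the widest gap, with Vars at -1.29 and Vars2 at 0.51, followed by leucine, with Lars at -0.71 and Lars2 at 1.01, and threonine, with Tars at -0.40 and Tars2 at 0.54. For isoleucine the order was turned, with Iars at 0.28 and Iars2 at -0.30, where both calls depended on single cultures as given above. These gaps are a description, since the pairs were not tested against each other. For 3 further amino acids both compartments were measured without such a pair of names. For phenylalanine Farsa (-0.69) and Farsb (-0.51) lay on either side of Fars2 (-0.61), and Eprs (-0.09) lay above both Ears2 (-1.22) for glutamate and Pars2 (-0.35) for proline.

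Histidine and tyrosine show how pairs of other kinds looked. Hars and Hars2 are neighbouring genes on chromosome 18 in the RefSeq table, and they differed by -0.78 and -0.03. Yars and Yars2 were both lower, by -0.45 and -1.10. Wars and Wars2 were both higher, by 0.23 and 0.95, making tryptophan the only one of the 12 pairs with calls upward in both compartments, with the Wars call resting on single cultures.

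**Figure D3:**
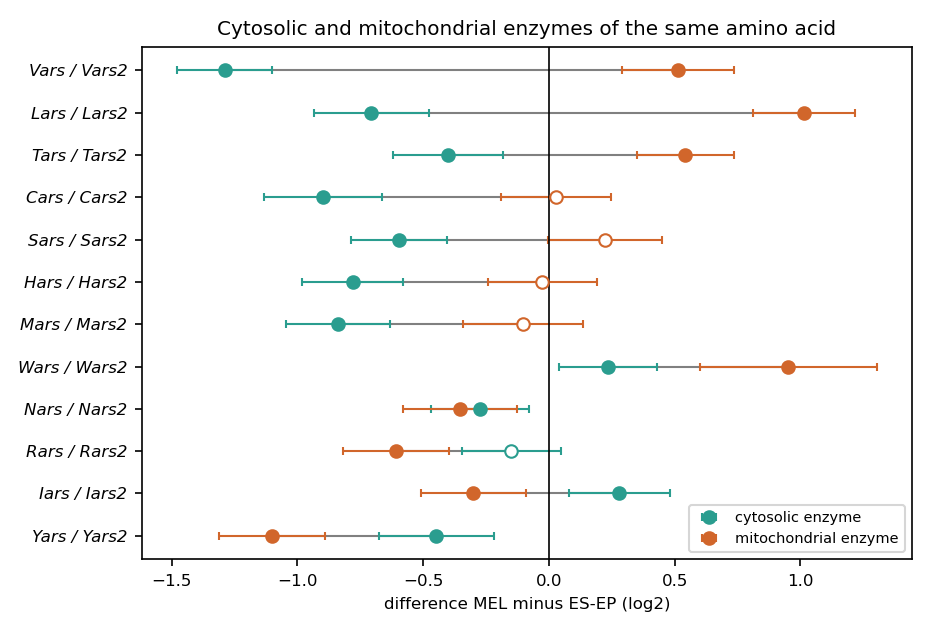
Difference of MEL minus ES-EP (log2, horizontal axis) of the cytosolic and the mitochondrial enzyme in the 12 pairs that share a name, joined by a grey line, with 95% intervals of the limma fit. Filled circles passed at an adjusted p under 0.05. Pairs run from the widest negative gap at the top, Vars at -1.29 and Vars2 at 0.51, to Yars at -0.45 and Yars2 at -1.10 at the bottom.

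The duplicates of MEL differed in a shared way. In 36 of 37 members MEL culture B read above MEL culture A, by a median distance of 0.11, against 0.05 between the ES-EP duplicates. Of the 8780 genes with a mean signal in the range of the members, 78.5% also read higher in MEL culture B. Leaving out MEL culture A gave 19 lower and 8 higher members and leaving out MEL culture B gave 23 and 4.

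The steps before charging had mixed differences. RNA polymerase III, with its initiation factors, transcribes tRNA genes. Of 17 measured genes on this list 7 were lower and 6 higher in MEL, against 36.9% and 21.8% of all genes. All 17 had a mean signal at or above the median feature, and of all such genes 34.9% were lower and 33.3% higher. The median difference of the list was -0.12, and 0.04 without MEL culture A. Polr3c had 11.45 and 11.48 in MEL and 10.09 and 10.13 in ES-EP cells (1.36 ± 0.08, adjusted p = 1.14e-05), while Polr3e had 8.44 and 8.42 in MEL and 9.26 and 9.33 in ES-EP cells (-0.86 ± 0.08, adjusted p = 0.000115). Both encode polymerase subunits.

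Genes that trim, splice and export tRNA were lower in 9 of 17 cases and higher in 1, against 36.9% and 21.8% of all genes, with a median of -0.35 against -0.14. Rpp40, a protein of ribonuclease P, had 5.52 and 6.03 in MEL and 7.32 and 7.35 in ES-EP cells (-1.56 ± 0.16, adjusted p = 0.000162). Its MEL values, with an SD of 0.36, lie on either side of the median signal of all features, 5.91, where RMA values compress differences. Pop4, another protein of the same enzyme, was higher in MEL (0.63 ± 0.09, adjusted p = 0.000778). Xpot, the export receptor of tRNA, had 10.63 and 10.83 in MEL and 10.83 and 10.84 in ES-EP cells and did not pass (-0.11, 95% interval -0.34 to 0.12, adjusted p = 0.36).

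Proofreading and amidation genes held large single differences. Of 4 proofreading genes 3 were lower, against 36.9% of all genes. They were led by Prorsd1, related to bacterial enzymes that clear mischarged proline tRNA. It had 7.85 and 8.08 in MEL and 9.45 and 9.36 in ES-EP cells (-1.44 ± 0.10, adjusted p = 2.83e-05). Of 4 genes of the mitochondrial amidotransferase and formylation list 2 were lower, again against 36.9% of all genes. Qrsl1, the subunit that helps convert the glutamate set on glutamine tRNA by Ears2, had 6.70 and 6.85 in MEL and 8.21 and 8.19 in ES-EP cells (-1.42 ± 0.09, adjusted p = 1.52e-05). Ears2 and Qrsl1, consecutive steps of 1 route, thus differed by -1.22 and -1.42. Of the other genes on that list, Gatb differed by -0.62, while Gatc (-0.03) and Mtfmt (0.14) did not pass.

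The factors that receive charged tRNA and those that act with them were mixed. Of 8 measured elongation factor genes 4 were lower and 1 higher, against 36.9% and 21.8% of all genes. All 8 had a mean signal at or above the median feature, and of all such genes 34.9% were lower and 33.3% higher. The median of the list was -0.12, and -0.06 after centring and -0.02 after cyclic loess. Eef1a1, which carries charged tRNA to the ribosome, read 13.66 and 13.66 in MEL against 13.63 and 13.64 in ES-EP cells, and its interval of -0.16 to 0.21 includes 0 (adjusted p = 0.804). Its mitochondrial counterpart Tufm differed by 0.21 (adjusted p = 0.0705). The call was gained with an intensity trend (0.0137), with dim features left out (0.042), by cyclic loess (0.0116) and by quantile normalization (0.00675). Tufm did not pass after centring (0.072) or with the mean of its features (0.16, adjusted p = 0.148). Its difference ran from 0.17 to 0.24 with 1 culture left out. Gfm2, which recycles mitochondrial ribosomes, was lower (-0.55 ± 0.10, adjusted p = 0.00249) and Eef1d, a subunit of the exchange factor of Eef1a1, was 1.49-fold higher (0.58 ± 0.09, adjusted p = 0.00151). The difference of Eef1d was 0.68, 0.64 and 0.69 after quantile normalization, centring and cyclic loess, each past 1.5-fold. Without MEL culture A it was 0.66 and without ES-EP culture A 0.59, also past 1.5-fold. Without MEL culture B it was 0.49 and without ES-EP culture B 0.57, both short of 1.5-fold.

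The eIF2alpha kinases were mixed, and Eif2ak2 did not pass, with overlapping groups (-0.01, limma adjusted p = 0.926). Eif2ak1, the heme-regulated kinase of erythroid cells, had 10.06 and 10.13 in MEL and 10.51 and 10.61 in ES-EP cells (-0.46 ± 0.09, adjusted p = 0.00325). Eif2ak4, the kinase that senses uncharged tRNA, had 8.13 and 8.23 in MEL and 7.53 and 7.60 in ES-EP cells (0.61 ± 0.09, adjusted p = 0.000845), and Eif2ak3, the kinase of the endoplasmic reticulum, was 2.14-fold higher (1.10 ± 0.10, adjusted p = 0.000101). The list as a whole had 3 lower and 3 higher of 9, against 36.9% and 21.8% of all genes. All 9 had a mean signal at or above the median feature, and of all such genes 34.9% were lower and 33.3% higher. The list's median of -0.04 turned positive, to 0.03 and 0.07, after centring and cyclic loess, and to 0.0046 without MEL culture A. Ppp1r15a, a phosphatase subunit induced downstream of these kinases, was 2.87-fold lower (-1.52 ± 0.10, adjusted p = 1.45e-05).

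Atf4 and many genes known to respond to it were lower in MEL. Atf4 had 9.55 and 9.75 in MEL and 10.40 and 10.47 in ES-EP cells (-0.78 ± 0.10, adjusted p = 0.000451). Of 19 other ATF4-responsive genes, not counting synthetases, 10 were lower and 4 higher, against 36.9% and 21.8% of all genes. Their median was -0.57, and -0.35 over the 18 genes that remain with dim features left out. Trib3, a pseudokinase, had 8.74 and 8.97 in MEL and 10.18 and 10.15 in ES-EP cells (-1.31 ± 0.10, adjusted p = 4.08e-05), and the transcription factor gene Ddit3 was 2.39-fold lower (-1.26 ± 0.09, adjusted p = 3.44e-05). Ddit4, an inhibitor of mTORC1, ran the other way (1.09 ± 0.08, adjusted p = 3.46e-05), and Asns, the asparagine synthetase, did not pass (-0.08, 95% interval -0.27 to 0.12, adjusted p = 0.463).

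**Figure D4:**
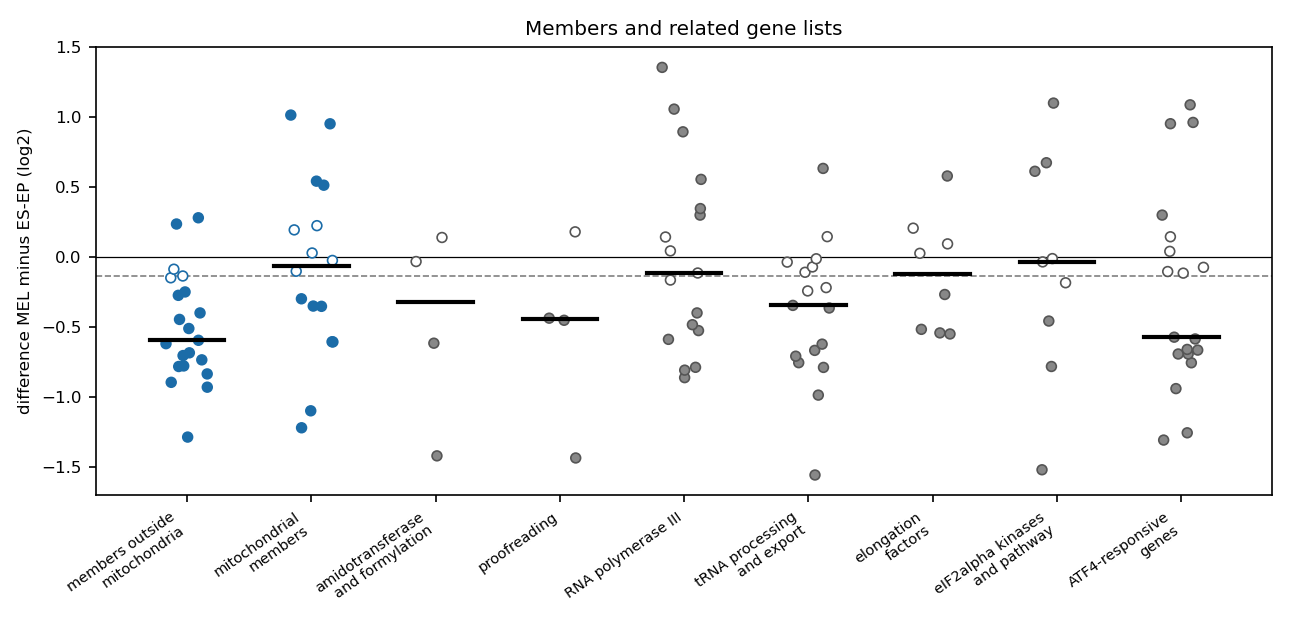
Difference of MEL minus ES-EP (log2, vertical axis) of each gene, for members outside mitochondria, mitochondrial members and 7 related lists. Filled circles passed at an adjusted p under 0.05, black bars are medians and the dashed line is the median of all genes, -0.14. The members outside mitochondria have a median of -0.60 and the ATF4-responsive list one of -0.57 (-0.35 with dim features left out, where the members outside mitochondria stay at -0.60), while the mitochondrial members have -0.06.

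A short sequence core bound by ATF4 with its C/EBP partners was looked for in the members' promoters, because ATF4 is known to act on synthetase genes. The motif TGATGNAA was searched on both strands of RefSeq windows of build GRCm38.p6, from 250 bases before to 50 after the transcription start. Of 30 listed genes with a window, 5 held it, all of them genes of cytosolic enzymes: Aars, Gars, Iars, Tars and Yars. Over all 27025 genes with a window 4.51% held it. The stretches are given 5′ to 3′ on the strand of the gene, with the motif in capitals. It reads as TGATGNAA on that strand in Yars and as its reverse complement in the others, and Aars holds a second match just after its start.

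Aars, chr8:111033704-111033763, plus strand: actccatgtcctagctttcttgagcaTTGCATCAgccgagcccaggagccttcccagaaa
Gars, chr6:55037941-55038000, plus strand: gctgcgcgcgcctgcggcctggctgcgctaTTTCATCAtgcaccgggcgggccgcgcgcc
Iars, chr13:49682126-49682155, plus strand: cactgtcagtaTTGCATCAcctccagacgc
Tars, chr15:11399659-11399718, minus strand: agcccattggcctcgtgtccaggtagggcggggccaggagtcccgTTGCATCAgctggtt
Yars, chr4:129189895-129189924, plus strand: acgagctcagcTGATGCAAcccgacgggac

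Counted from the start, with -1 just before it and 1 at it, the match begins at base -112 in Aars, -30 in Gars, -15 in Tars, 4 in Yars and 8 in Iars. The 4 genes of these with a feature of their own differed by -0.45 (Yars), -0.40 (Tars), -0.14 (Gars, not passed) and 0.28 (Iars). The members with the largest negative differences among those with a window, Ears2 and Yars2, held no match in it. Vars, Cars, Hars, Hars2, Lars, Nars, Pars2, Rars and Wars had no window, so their promoters were not searched. The part of the motif in the differences was not tested. A match describes these letters only and shows neither binding nor its absence.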

How the data were processed

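Total RNA of 4 cultures was hybridised to Affymetrix Mouse Gene 1.0 ST arrays. The deposited table holds log2 values that the authors obtained by RMA with GeneSpring GX, per the labels. Its version and any filters are not stated, and that the scale is log2 follows from the range of values. RMA normalizes arrays to each other and so hides changes in total RNA. Of 35557 features 6613 control features were left out and 28944 were tested. Genes were named from GEO's platform annotation, updated through Entrez identifiers with a RefSeq table (GRCm38.p6, 21698 features matched): 21789 features had 1 symbol, 1621 several and 5534 none. The brightest single-symbol feature stood for a gene, and no filter on low values was used. All 37 members had a mean signal at or above the median feature.

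Groups were compared with limma 3.58.1 (R 4.3.3; lmFit, eBayes; 2 residual and 5.15 prior degrees of freedom), with Benjamini-Hochberg adjustment over the 28944 features. The SE is that of the moderated fit, and the number of arrays limits the precision. The procedure was tested on simulated data. Named genes are all measured members and, of each related list, the largest passing rise and fall plus a few genes chosen for their role. Members, lists and tests were chosen with earlier results of these data known. Motifs were searched in RefSeq promoter windows. The alternatives were 3 other scalings, 2 other priors, a filter on dim features, the mean of a gene's features, the replicate letter as a block, and each culture left out.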

Additional observations from a re-analysis of the deposited data

How the results depend on the processing

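Under the 12 alternatives run, 22 of the 37 members kept their direction and their side of the threshold, 18 of them lower and 4 higher in MEL. The counts of lower and higher members stayed within 1.5 times their value as reported in each alternative. The median difference of the members, -0.35, became -0.27 with cyclic loess and -0.29 with either quantile normalization or centring, and ran from -0.45 to -0.30 with 1 culture left out. Every gene that changed sign had not passed as reported. After quantile normalization Cars2 was -0.0713, Eprs 0.0756, Gars 0.0069, Xpot 0.0494 and Eef1a1 -0.15. After centring Hars2 was 0.0393, and after cyclic loess Eprs was 0.0224, Hars2 0.0542, Asns 0.0357 and Xpot 0.0005. With 1 culture left out Cars2 ran from -0.0582 to 0.11, Hars2 from -0.11 to 0.0575 and Mars2 from -0.21 to 0.0085. The cause of these changes was not tested. The letters A and B are not known to pair the cultures, whose deviations correlated with r = 0.11 across features. With the letter as a replicate block the counts were again 23 lower and 6 higher, and no member's call changed. With 1 array left out, the lone culture of a group is assumed to vary like the other group.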

Other observations

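The feature shared by Aars, the alanine enzyme, and Exosc6, a subunit of the RNA exosome, cannot be assigned to either gene. It had 10.03 and 10.08 in the MEL cultures and 11.00 and 11.06 in the ES-EP cultures, a difference of -0.98 ± 0.08 (SE, n = 2 per group, limma adjusted p = 6.23e-05).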
